A study of Peniophora incarnata with 12 samples.

Results

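Of the 16059 genes in the deposited table, 3 are described here: A10974 and A05729, annotated as alcohol oxidase with the symbol AOD1, and A02035, annotated as formate dehydrogenase with the symbol FDH1. They were chosen by identifier as the entry and the exit of the route from methanol to carbon dioxide, with their difference between Chinese fir wood and PDA already known. All 3 reached 1 FPKM in at least 3 libraries and were kept among the 13974 genes tested. The organism was Peniophora incarnata, a white-rot basidiomycete that degrades the lignin as well as the polysaccharides of wood. Its strain T-7 grew as mycelium for 30 days on powdered poplar wood, powdered Chinese fir wood, powdered rice straw or, as the control, potato dextrose agar (PDA). The powders were of 60 mesh, and all groups shared still culture in the dark at 28 °C and 75% relative humidity. Each group had 3 libraries labelled as biological replicates, made from poly(A) RNA with a strand-specific kit. Each plant class was represented by a single material, and all libraries came from a single strain at a single time.

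Alcohol oxidases are flavoproteins that oxidise methanol and other short alcohols with oxygen, which gives formaldehyde and hydrogen peroxide. In methylotrophic yeasts this happens inside peroxisomes, where a catalase removes the peroxide. The formaldehyde binds glutathione and is oxidised and hydrolysed to formate, which an NAD-dependent formate dehydrogenase turns into carbon dioxide. For fungi that grow on plant cell walls, methanol can come from the methyl esters of pectin and the methoxyl groups of lignin, and formate also from the decarboxylation of oxalate. Gene names are those of the best database match in the deposited table, and no protein sequence was used here to check them. The symbol FDH1 stood beside 3 genes of the table, of which A16047 is a second formate dehydrogenase and A07864 is the dehydrogenase of formaldehyde bound to glutathione.

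The libraries held 23398461 to 31132066 reads, worked back from the FPKM values (fragments per kilobase of gene length, scaled to library size). The poplar wood libraries differed among themselves more than those of the other groups. Their lowest pairwise correlation was 0.865, and the median SD of a tested gene on the log2(FPKM + 1) scale was 0.462 there, against 0.194 for Chinese fir wood, 0.178 for rice straw and 0.151 for PDA. Chinese fir wood replicate 1, rice straw replicate 3 and PDA replicate 2 came close to a mixture of the reads of their group's other libraries. Their chi-square per gene from that mixture was 4.75, 6.98 and 4.404, and that of the other libraries of these groups was 25.4 to 54.1. The tested differences, the replicate spread, the list counts and the named calls were also computed without these 3 intermediate libraries, and what changed is given beside them. That omission keeps the outer libraries of each of these groups and leaves fewer libraries. It thus tends to widen the spread, and a call can be lost with little change in the difference itself.

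The alcohol oxidase A10974, with a coding length of 1965 bp, had 1.28, 25.1 and 22.5 FPKM in poplar wood replicates 1, 2 and 3. It had 0.654, 0.560 and 0.914 FPKM on Chinese fir wood, 299.8, 292.9 and 296.1 FPKM on rice straw, and 129.5, 162.7 and 194.5 FPKM on PDA. No library of one group lay within the range of another, and the 4 groups ran in the order rice straw, PDA, poplar wood and Chinese fir wood. Poplar wood replicate 1 stood just above the Chinese fir wood libraries, far below the other poplar wood libraries. Behind these values lay 65, 1154 and 1128 reads on poplar wood and 40, 31 and 43 reads on Chinese fir wood, against 15575 to 18011 reads on rice straw and 6128 to 9775 reads on PDA. The exact Poisson 95% interval of poplar wood replicate 1, 0.989 to 1.63 FPKM, met that of Chinese fir wood replicate 3, 0.662 to 1.23 FPKM, so counting error alone does not part these libraries. Such intervals cover counting error only.

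The alcohol oxidase A05729, of 1953 bp, had 1.05, 20.1 and 26.3 FPKM on poplar wood. It had 1.05, 1.018 and 0.834 FPKM on Chinese fir wood, 310.0, 301.1 and 308.6 FPKM on rice straw, and 154.5, 184.4 and 216.2 FPKM on PDA. The order of the groups was that of A10974, except that poplar wood and Chinese fir wood overlapped: poplar wood replicate 1 rested on 53 reads and Chinese fir wood replicate 1 on 64. Group means of A10974 were 16.3 ± 13.1, 0.709 ± 0.184, 296 ± 3.41 and 162 ± 32.5 FPKM on poplar wood, Chinese fir wood, rice straw and PDA (SD, n = 3 each). Those of A05729 were 15.8 ± 13.2, 0.968 ± 0.117, 307 ± 4.803 and 185 ± 30.8 FPKM in the same groups (SD, n = 3 each). Among the 16059 genes, A10974 ranked 454 to 481 from the top on rice straw, 722 to 1137 on PDA, 4457 to 12715 on poplar wood and 12791 to 13572 on Chinese fir wood.

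The formate dehydrogenase A02035, of 1077 bp, had 133.4, 159.6 and 34.1 FPKM on poplar wood. It had 4.98, 6.89 and 5.55 FPKM on Chinese fir wood, 238.6, 363.7 and 312.5 FPKM on rice straw, and 322.2, 331.2 and 333.5 FPKM on PDA. The PDA and rice straw libraries overlapped, every poplar wood library lay below both, and every Chinese fir wood library lay below poplar wood. On poplar wood the low library was replicate 3, whereas for both alcohol oxidases it was replicate 1. The means were 109 ± 66.2 FPKM on poplar wood, 5.81 ± 0.9797 FPKM on Chinese fir wood, 305 ± 62.9 FPKM on rice straw and 329 ± 5.96 FPKM on PDA (SD, n = 3 each). FDH1 kept a rank of 7476 to 8735 on Chinese fir wood, where 143 to 209 reads lay behind each value. In these mycelia, fewer cells that express a gene and less RNA of that gene per cell cannot be told apart.

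**Figure D1:**
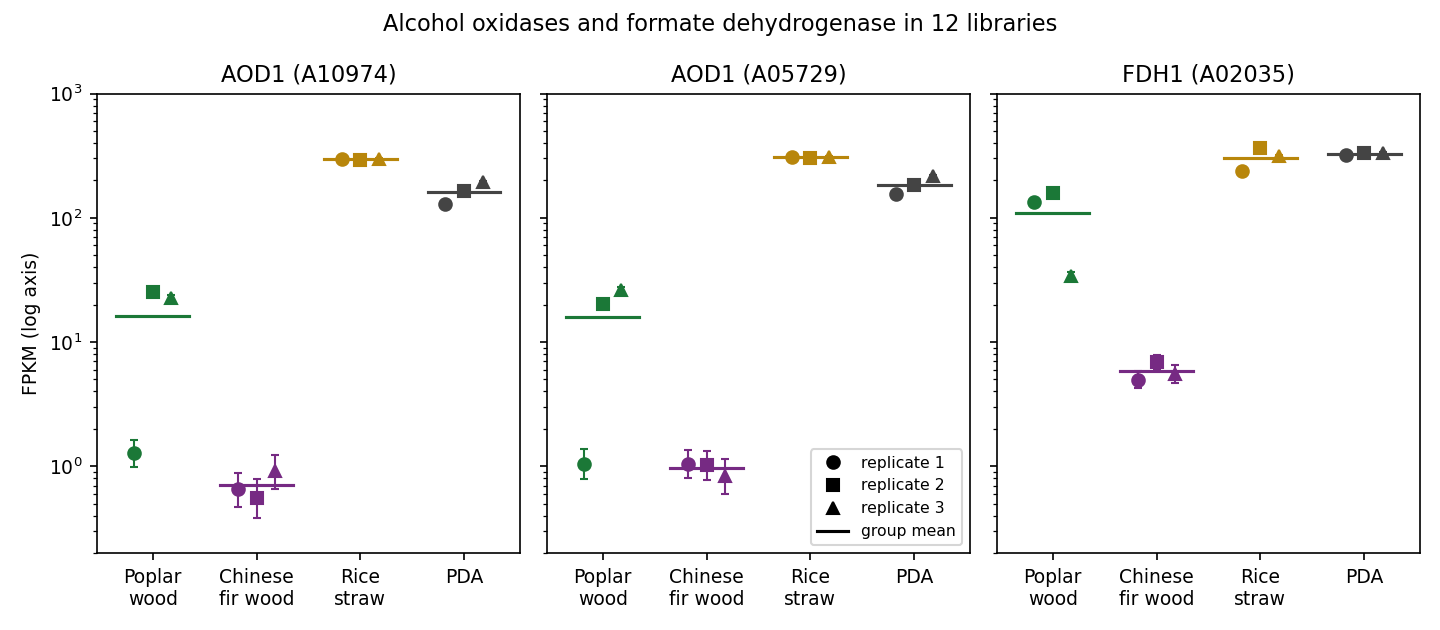
FPKM (log axis) of the 2 alcohol oxidases and of FDH1 in each library on poplar wood, Chinese fir wood, rice straw and PDA; marker shapes give the replicate, horizontal lines the group mean, and vertical bars the exact Poisson 95% interval of the reads, which covers counting error only. Both AOD1 genes lie near 300 FPKM on rice straw and at or below about 1 FPKM on Chinese fir wood, and the low poplar wood library is replicate 1 for AOD1 (1.28 and 1.05 FPKM) and replicate 3 for FDH1 (34.1 FPKM).

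The spread between replicates differed by group and by gene. On poplar wood the SD of log2(FPKM + 1) was 1.99 for A10974, 2.06 for A05729 and 1.20 for FDH1, larger than that of 99.7%, 99.7% and 95.5% of the tested genes. On rice straw the SD was 0.017 for A10974 and 0.023 for A05729, and 0.880% and 1.52% of the tested genes had a smaller one. FDH1 had its smallest SD on PDA, 0.026, and 3.54% of the tested genes had a smaller one. Without the intermediate libraries, which leaves 2 libraries in each of these groups, 6.20%, 7.95% and 11.6% of the tested genes had a smaller SD. The SD of FDH1 on rice straw was 0.31, and those of the alcohol oxidases on PDA were 0.29 for A10974 and 0.24 for A05729.

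Only the pair of poplar wood and rice straw leaves out Chinese fir wood and PDA, whose difference was known when the genes were chosen. It is the only pair tested for them. Earlier results of these data, which may include all 4 groups, were known at that choice. This test may therefore not be independent of the choice either, and its adjusted p-values are not independent support. Both alcohol oxidases and FDH1 fell on poplar wood relative to rice straw. The log2 difference was -4.73 for A10974 (SE 0.69, adjusted p = 0.000189), -4.86 for A05729 (SE 0.71, adjusted p = 0.000189) and -1.73 for FDH1 (SE 0.44, adjusted p = 0.00722), by limma on log2(FPKM + 1) with Benjamini-Hochberg adjustment over all tested genes. All 3 poplar wood libraries lay below all 3 rice straw libraries for each gene. Among the tested genes, 14.4% were called lower on poplar wood than on rice straw (adjusted p under 0.05 and a log2 difference of at least 1 in size), and 23.8% had every poplar wood library below every rice straw library. Without the intermediate libraries the FDH1 difference was -1.70 and no longer called (adjusted p = 0.0559), where its adjusted p over all alternatives ran from 0.00144 to 0.0559. The size also moved with single libraries: without poplar wood replicate 1 the differences were -3.59 for A10974 and -3.68 for A05729, and FDH1 stood at -1.04 without poplar wood replicate 3 and at -2.13 without poplar wood replicate 2.

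The other pairs of groups hold Chinese fir wood or PDA and are given as description, with no test. The 3 comparisons with PDA share the same PDA libraries. Poplar wood minus PDA gave log2 differences of -3.85 for A10974 (SE 0.69), -4.12 for A05729 (SE 0.71) and -1.86 for FDH1 (SE 0.44). Chinese fir wood minus PDA gave -6.56, -6.55 and -5.61 for the same genes. Every poplar wood library lay below every PDA library for the 3 genes, as in 30.8% of the tested genes, and every Chinese fir wood library lay below PDA, as in 56.7%, and below rice straw, as in 40.4%. Every poplar wood library lay above every Chinese fir wood library for A10974 and FDH1, as in 31.9% of the tested genes, with log2 differences of 2.72 and 3.75, and A05729 differed by 2.43 with overlap. All these differences are on the log2(FPKM + 1) scale, which understates those of genes near 1 FPKM. Rice straw minus PDA gave 0.88 for A10974, 0.74 for A05729 and -0.13 for FDH1. Both alcohol oxidases stood above PDA in every rice straw library, and 20.9% of the tested genes did so. Dividing each library by its median ratio over genes (median-of-ratios scaling), which moved the median of all genes for rice straw minus PDA to -0.01 from -0.25, put the 3 differences at 1.17, 1.03 and 0.16. FDH1 on rice straw thus lay nearer to PDA than the SE of 0.44 under either scaling, with a sign that depended on it, and the groups overlapped.

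Within a library, a ratio of genes does not depend on how the library was scaled. FDH1 FPKM divided by the summed FPKM of both alcohol oxidases was 57.2, 3.53 and 0.699 in poplar wood replicates 1, 2 and 3. Chinese fir wood libraries had ratios of 2.92, 4.37 and 3.17, rice straw libraries 0.391, 0.612 and 0.517, and PDA libraries 1.13, 0.954 and 0.812. Per length, FDH1 exceeded the summed alcohol oxidases in all 3 Chinese fir wood libraries and lay below them in all 3 rice straw libraries. The PDA libraries stood near parity, and the poplar wood libraries ran from below those of PDA to above those of Chinese fir wood. The extreme poplar wood library, replicate 1, had a summed alcohol oxidase level of 2.33 FPKM, against 45.2 and 48.8 FPKM in replicates 2 and 3.

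The alcohol oxidases kept close to parity with each other. A10974 divided by A05729 was 1.22, 1.25 and 0.856 in the poplar wood libraries and 0.621, 0.550 and 1.10 in the Chinese fir wood libraries. It was 0.967, 0.973 and 0.960 in the rice straw libraries and 0.838, 0.882 and 0.900 in the PDA libraries. On rice straw and PDA, where at least 6128 reads lay behind each value, A10974 was the lower of the pair in all 6 libraries. On the wood powders either gene could be the higher. If the 2 sequences are near-identical, the authors' counting could have given shared reads to either gene or left them out. The level of each gene and of their sum would then be uncertain, which was not tested.

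**Figure D2:**
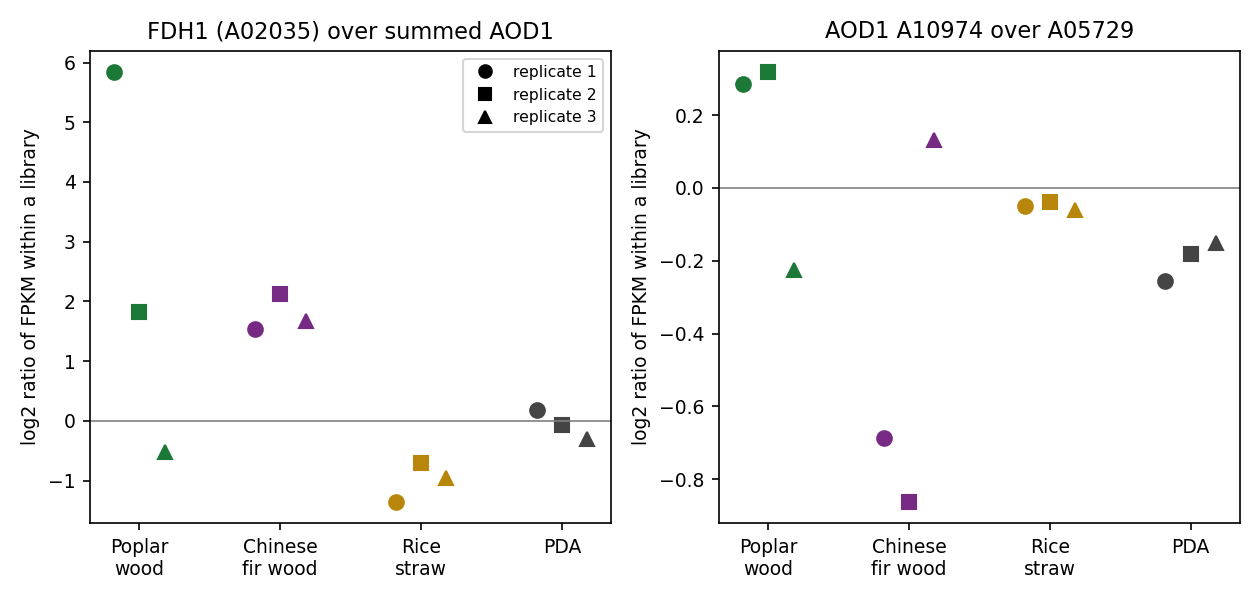
Log2 ratios of FPKM within each library on poplar wood, Chinese fir wood, rice straw and PDA, with FDH1 over the summed alcohol oxidases on the left, A10974 over A05729 on the right, marker shapes for the replicate and a line at parity. The FDH1 ratio lies below parity in all rice straw libraries (log2 -1.35 to -0.71) and above it in all Chinese fir wood libraries (1.55 to 2.13), and runs from -0.52 to 5.84 on poplar wood.

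Between the alcohol oxidases and FDH1 stand the 2 enzymes that turn formaldehyde into formate, and both were lower on wood. The S-(hydroxymethyl)glutathione dehydrogenase A07864, which oxidises formaldehyde bound to glutathione, had 196, 129 and 85.6 FPKM on poplar wood, 121, 135 and 104 FPKM on Chinese fir wood, 858, 648 and 761.8 FPKM on rice straw, and 414, 379 and 340 FPKM on PDA. The rice straw libraries were highest, the PDA libraries next, and the overlapping wood libraries lowest. A07864 fell on poplar wood relative to PDA (log2 difference -1.53, SE 0.26, limma adjusted p = 0.000701), on Chinese fir wood relative to PDA (-1.65, adjusted p = 0.00034) and on poplar wood relative to rice straw (-2.53, adjusted p = 1.71e-05). Rice straw minus PDA was 0.996 (adjusted p = 0.0111), just under the size needed for a call, and was called under 4 of the 22 alternatives. The S-formylglutathione hydrolase A04205, which releases formate from glutathione, had 3.79, 13.2 and 19.6 FPKM on poplar wood, 12.2, 5.82 and 13.0 FPKM on Chinese fir wood, 19.2, 29.6 and 28.3 FPKM on rice straw, and 61.0, 55.7 and 48.4 FPKM on PDA. Unlike A07864 it was highest on PDA. It fell on poplar wood (-2.32, SE 0.45, limma adjusted p = 0.00165) and on Chinese fir wood (-2.37, adjusted p = 0.00119) relative to PDA, and rice straw minus PDA was -1.09 (adjusted p = 0.0790). Its fall on poplar wood relative to rice straw (-1.23, limma adjusted p = 0.0419) was lost in 14 of the 22 alternatives, among them the omission of the intermediate libraries and that of any 1 rice straw or PDA library, and the groups overlapped.

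The peroxisomal catalase CAT1 (A14206), which breaks down the hydrogen peroxide that alcohol oxidases make, had 7.93, 17.3 and 17.8 FPKM on poplar wood, 4.73, 4.96 and 4.68 FPKM on Chinese fir wood, 172, 265 and 222 FPKM on rice straw, and 239, 234 and 239 FPKM on PDA. The rice straw and PDA libraries overlapped, and every wood library lay below them. CAT1 fell on poplar wood (log2 difference -4.03, SE 0.27, limma adjusted p = 1.10e-06) and on Chinese fir wood (-5.36, adjusted p = 1.55e-07) relative to PDA, and on poplar wood relative to rice straw (-3.90, adjusted p = 1.25e-06). On Chinese fir wood minus PDA the difference of FDH1 was -5.61 and those of AOD1 were -6.56 and -6.55.

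The second formate dehydrogenase, A16047, was named after its values were seen. It had 256, 176 and 21.5 FPKM on poplar wood, 11.2, 12.4 and 12.9 FPKM on Chinese fir wood, 32.9, 65.6 and 56.3 FPKM on rice straw, and 46.3, 26.8 and 12.3 FPKM on PDA. Its highest values were those of poplar wood replicates 1 and 2, and on poplar wood its low library was replicate 3, as for A02035. A16047 rose on poplar wood relative to Chinese fir wood (log2 difference 2.94, SE 0.74, limma adjusted p = 0.00784), a call lost without the intermediate libraries. Poplar wood minus PDA was 1.95 (SE 0.74, adjusted p = 0.0507) with overlapping groups, and was called under 6 of the 22 alternatives. Poplar wood minus rice straw was 0.99 (adjusted p = 0.291), and A16047 passed the test in neither comparison.

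**Figure D3:**
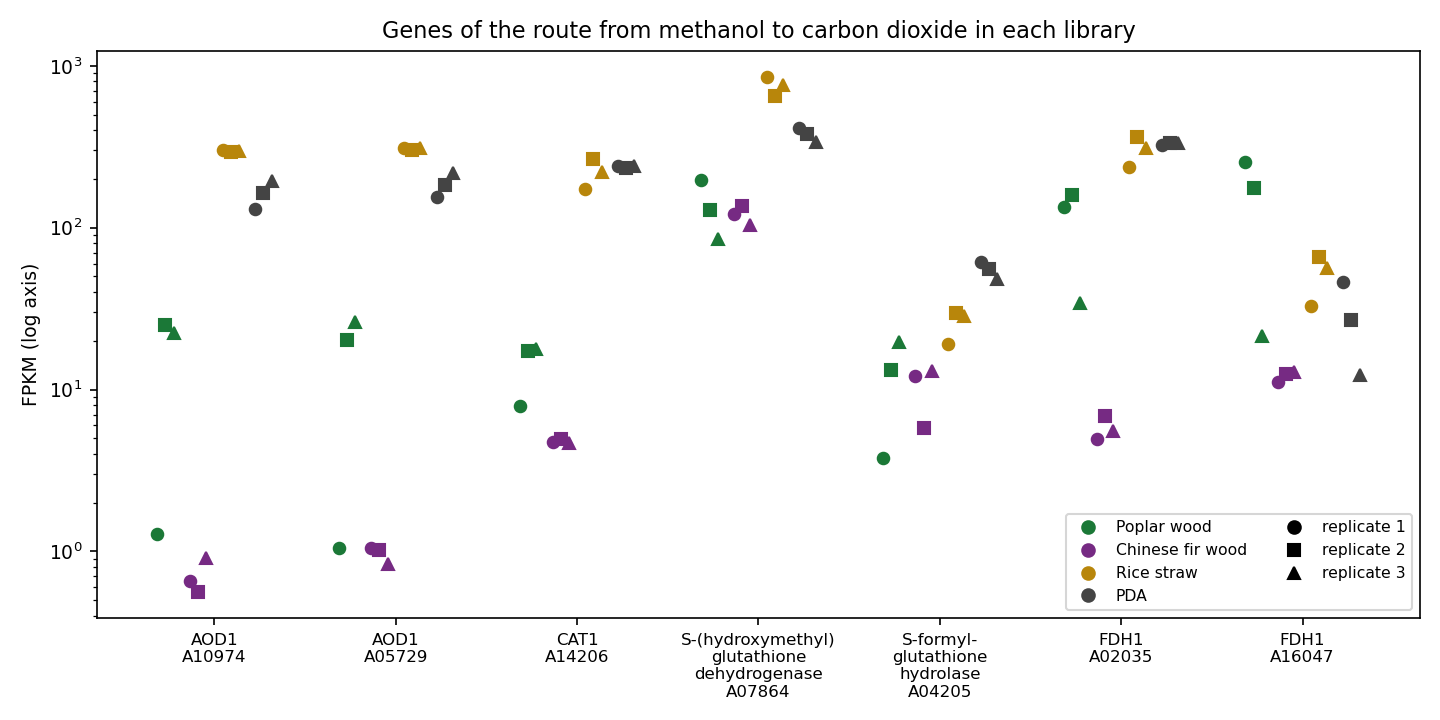
FPKM (log axis) in each library of the alcohol oxidases, the peroxisomal catalase, both enzymes from formaldehyde to formate and both formate dehydrogenases, with colours for poplar wood, Chinese fir wood, rice straw and PDA and marker shapes for the replicate. The alcohol oxidases and CAT1 are low in every wood library, A07864 stays at or above 85.6 FPKM throughout, and A16047 has its highest levels in poplar wood replicates 1 and 2 (256 and 176 FPKM).

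The other genes around the route were gathered into 8 lists by patterns on their descriptions, with 112 genes in the table and 108 tested. Against PDA, 9 of them rose and 33 fell on poplar wood, 8 rose and 40 fell on Chinese fir wood, and 17 rose and 16 fell on rice straw. Among all tested genes, 8.30% were called higher and 17.1% lower on poplar wood, 5.91% and 24.5% on Chinese fir wood, and 6.81% and 14.1% on rice straw. The median log2 difference of the 108 genes was -0.49, -0.72 and -0.10 in these comparisons, beside -0.18, -0.51 and -0.25 for all tested genes. On poplar wood relative to rice straw, 9 rose and 29 fell, where 14.4% of all tested genes were called in each direction and the medians were -0.32 for the lists and 0.07 for all tested genes. Under median-of-ratios scaling 21 instead of 40 fell on Chinese fir wood, and without the intermediate libraries 6 instead of 17 rose on rice straw and 4 instead of 8 on Chinese fir wood. Counts over all tested genes moved as well. Median-of-ratios scaling put 1534 instead of 3430 of them lower on Chinese fir wood. Omission of the intermediate libraries put 474 instead of 952 higher on rice straw. List counts under alternatives, here and below, thus have another background than the shares of the main fit.

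The list of other alcohol oxidases held 32 tested genes, of which the pattern had taken 16 aryl-alcohol dehydrogenases, which reduce or oxidise aromatic aldehydes and alcohols and are not oxidases. The other 16 belong by description to the glucose-methanol-choline (GMC) oxidoreductase family of AOD1, a split made after the values were seen. Of the whole list, 5 rose and 6 fell on poplar wood relative to PDA, 3 rose and 8 fell on Chinese fir wood, and 7 rose and 1 fell on rice straw. The medians were 0.02, -0.40 and 0.23. The 6 and 8 falls of 32 genes on the woods were close to the 17.1% and 24.5% of all tested genes. Without the intermediate libraries 3 genes fell on poplar wood, 1 rose and 4 fell on Chinese fir wood, and 1 rose and 0 fell on rice straw, and median-of-ratios scaling left 2 falls on Chinese fir wood. The most abundant called rise was A02379 on both woods and A08005 on rice straw, and A08005 was also the most abundant fall on poplar wood. Both are annotated only as GMC oxidoreductase family proteins. A02379 rose on all 3 materials relative to PDA, with 173 ± 108 FPKM on poplar wood, 230 ± 106 on Chinese fir wood, 141 ± 6.26 on rice straw and 33.4 ± 3.36 on PDA (SD, n = 3 each), and limma adjusted p of 0.00746, 0.00131 and 0.00855. Its rises on poplar wood and rice straw were lost without the intermediate libraries. A08005 had 81.1 ± 33.8 FPKM on poplar wood, 669 ± 337 on Chinese fir wood, 1050 ± 102 on rice straw and 408 ± 93.6 on PDA (SD, n = 3 each). It fell on poplar wood (log2 difference -2.37, limma adjusted p = 0.000455) and rose on rice straw (1.38, adjusted p = 0.0140) relative to PDA. The rise was lost without the intermediate libraries and without PDA replicate 3. One more gene annotated as an alcohol oxidase, AOX1 (A02976), had 25.0, 78.7 and 176 FPKM on poplar wood, 47.0, 35.2 and 58.5 FPKM on Chinese fir wood, 19.4, 34.2 and 29.2 FPKM on rice straw, and 68.0, 77.6 and 92.0 FPKM on PDA. It fell on rice straw relative to PDA (-1.51, limma adjusted p = 0.0389), a call lost in 11 of the 22 alternatives, whereas both AOD1 genes were above PDA there.

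The enzymes of formate and oxalate, 15 genes besides FDH1, included 0 rises and 1 fall on poplar wood, 1 rise and 5 falls on Chinese fir wood, and 2 rises and 0 falls on rice straw relative to PDA. The medians were 0.16, -0.50 and 0.17, against -0.18, -0.51 and -0.25 for all tested genes. Of the latter, 8.30%, 5.91% and 6.81% rose and 17.1%, 24.5% and 14.1% fell. At an unadjusted limma p under 0.05, 3 genes were higher on poplar wood and 4 lower on rice straw, and voom called 0 and 1 of these. The falls on Chinese fir wood numbered 2 under median-of-ratios scaling, 2 without the intermediate libraries and 0 with a pseudocount of 5, and the rise there was lost with this pseudocount and without the intermediate libraries. The rises on poplar wood numbered 2 under median-of-ratios scaling, and those on rice straw 1 without the intermediate libraries. Apart from the formate dehydrogenase A16047 they were oxalate decarboxylases, which make formate from oxalate, and formamidases, which free it from amides. The genes named below for each direction were the most abundant called ones. The formamidase A18001 rose on rice straw to 21.6 ± 2.25 FPKM, against 5.24 ± 0.730 FPKM on PDA (SD, n = 3 each; log2 difference 1.86, limma adjusted p = 0.000352). It fell on Chinese fir wood to a mean of 0.728 FPKM (-1.85, limma adjusted p = 0.000219) and was not called on poplar wood (-0.51, adjusted p = 0.157) relative to PDA.

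Folate carries single carbons at the level of formate and formaldehyde, the other fate of these compounds. Of its 15 tested genes, 1 rose and 4 fell on poplar wood, 0 rose and 6 fell on Chinese fir wood, and 0 rose and 1 fell on rice straw relative to PDA. At an unadjusted limma p under 0.05, 0 genes were higher on Chinese fir wood, whereas 2 were higher on rice straw. Voom called 0 higher on either. The medians were -0.70, -0.83 and -0.33, against -0.18, -0.51 and -0.25 for all tested genes. Of the latter, 8.30%, 5.91% and 6.81% rose and 17.1%, 24.5% and 14.1% fell. The list also held the panB genes A06778 and A08975, described as 3-methyl-2-oxobutanoate hydroxymethyltransferase without mention of folate. Both were among the falls on each wood. Under median-of-ratios scaling 2 genes of the list fell on each wood. On poplar wood the falls numbered 2 without replicate 1 and 7 without replicate 3, and the rise was lost without the intermediate libraries. The C-1-tetrahydrofolate synthase A16005, which loads formate onto folate, fell to 37.4 ± 22.9 FPKM on poplar wood and 30.7 ± 8.36 FPKM on Chinese fir wood, against 74.3 ± 1.72 FPKM on PDA (SD, n = 3 each; limma adjusted p of 0.0188 and 0.00870). Its calls on both woods were lost under median-of-ratios scaling and without the intermediate libraries, and that on poplar wood in 6 of the 22 alternatives. The decarboxylating glycine dehydrogenase gcv2 (A04430), part of the glycine cleavage system, fell on rice straw to 14.9 ± 0.769 FPKM, against 47.1 ± 1.87 FPKM on PDA (SD, n = 3 each; limma adjusted p = 3.70e-05).

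Methylotrophic yeasts keep part of their formaldehyde carbon through a transketolase and a dihydroxyacetone kinase. Of the 9 genes with such descriptions, 0 rose and 5 fell on poplar wood, 0 rose and 5 fell on Chinese fir wood, and 3 rose and 3 fell on rice straw relative to PDA. The medians were -1.11, -1.77 and -0.25, against -0.18, -0.51 and -0.25 for all tested genes. Of the latter, 8.30%, 5.91% and 6.81% rose and 17.1%, 24.5% and 14.1% fell. Without the intermediate libraries the 3 rises of the list on rice straw were lost and 3 genes fell on poplar wood, as under median-of-ratios scaling. The list also held 2 reductases of acyldihydroxyacetone phosphate (ayr1), which act in lipid synthesis, and these were 2 of the 3 rises on rice straw. The remaining rise was that of the dihydroxyacetone kinase A15965. The other kinases A02194, A08616 and A07363 were not called there, with log2 differences from PDA of 0.02, -0.25 and -0.35. The transketolases A02551, A09796 and A12644 are annotated only as Transketolase 1, which does not tell whether they act on formaldehyde. They made up every fall of the list on rice straw and were among the falls on poplar wood. On Chinese fir wood only A09796 of them was called. The transketolase TKL1 (A09796) fell to 34.9 ± 22.9 FPKM on poplar wood, 53.6 ± 6.51 FPKM on Chinese fir wood and 68.1 ± 17.7 FPKM on rice straw, against 281 ± 8.24 FPKM on PDA (SD, n = 3 each; limma adjusted p of 0.000176, 0.00128 and 0.00454). The fall on rice straw was lost without the intermediate libraries. The dihydroxyacetone kinase dak1 (A15965) had 0.571, 5.53 and 4.77 FPKM on poplar wood, 1.93, 3.54 and 0.593 FPKM on Chinese fir wood, 74.9, 70.9 and 68.8 FPKM on rice straw, and 16.3, 13.6 and 13.9 FPKM on PDA. Its groups stood in the order of the AOD1 groups by mean, with overlapping wood libraries. It rose on rice straw (log2 difference 2.22, limma adjusted p = 0.00389) and fell on poplar wood (-1.998, adjusted p = 0.00592) and Chinese fir wood (-2.49, adjusted p = 0.00128) relative to PDA, and the rise on rice straw was lost without the intermediate libraries.

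Among 12 enzymes that remove peroxide, 1 rose and 6 fell on poplar wood, 1 rose and 2 fell on Chinese fir wood, and 1 rose and 2 fell on rice straw relative to PDA. The medians were -1.33, 0.09 and -0.61, against -0.18, -0.51 and -0.25 for all tested genes. Of the latter, 8.30%, 5.91% and 6.81% rose and 17.1%, 24.5% and 14.1% fell. CAT1 was the most abundant of the falls on both woods. The rise on poplar wood was that of another catalase, catA (A05540), with 12.2 ± 3.43 FPKM there and 3.41 ± 0.517 FPKM on PDA (SD, n = 3 each). The remaining catalases of the list were not called on poplar wood. The peroxiredoxin tpx1 (A10538), a thiol peroxidase, rose on Chinese fir wood to 221 ± 127 FPKM, against 53.3 ± 5.71 FPKM on PDA (SD, n = 3 each; log2 difference 1.85, limma adjusted p = 0.00226), and it fell on poplar wood (-1.94, adjusted p = 0.00203). The mitochondrial peroxiredoxin PRX1 (A19334) rose on rice straw to 1383 ± 344 FPKM, against 299 ± 18.9 FPKM on PDA (SD, n = 3 each; 2.18, limma adjusted p = 0.00749). The rise of tpx1 on Chinese fir wood and that of PRX1 on rice straw were both lost without the intermediate libraries.

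Of 16 tested genes of peroxisome assembly, 8 fell on poplar wood, 12 fell on Chinese fir wood and 9 fell on rice straw relative to PDA, and 0 rose in any of these. The medians were -1.07, -1.47 and -1.11, against -0.18, -0.51 and -0.25 for all tested genes. Of the latter, 8.30%, 5.91% and 6.81% rose and 17.1%, 24.5% and 14.1% fell. Under median-of-ratios scaling 7 genes of the list fell on each of the 3 materials. The falls included rice straw, where both AOD1 genes stood above PDA. PEX13 (A14662), a docking protein for enzymes entering the peroxisome, fell to 17.96 ± 4.57 FPKM on poplar wood, 17.8 ± 1.51 FPKM on Chinese fir wood and 29.7 ± 1.53 FPKM on rice straw, against 83.9 ± 11.4 FPKM on PDA (SD, n = 3 each; limma adjusted p of 6.83e-06, 5.21e-06 and 0.000160). On poplar wood relative to rice straw 1 of the 16 rose and 0 fell by limma, where 4 were lower at an unadjusted p under 0.05 and voom called 0.

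Enzymes that can free methanol from plant cell walls numbered 7, of which 2 rose and 1 fell on poplar wood, 3 rose and 0 fell on Chinese fir wood, and 4 rose and 0 fell on rice straw relative to PDA. The medians were 0.07, 0.37 and 1.34, against -0.18, -0.51 and -0.25 for all tested genes. Of the latter, 8.30%, 5.91% and 6.81% rose and 17.1%, 24.5% and 14.1% fell. With a pseudocount of 5, 2 genes of the list rose on rice straw. The pectinesterase pme1 (A07668), which removes methyl esters from pectin, had 3.97, 4.10 and 3.20 FPKM on poplar wood, 27.0, 22.8 and 28.6 FPKM on Chinese fir wood, 8.14, 12.6 and 11.96 FPKM on rice straw, and 12.5, 10.03 and 8.58 FPKM on PDA. It fell on poplar wood (log2 difference -1.25, limma adjusted p = 0.000613) and rose on Chinese fir wood (1.26, adjusted p = 0.000451) relative to PDA, so it was highest in the group in which AOD1 was lowest. The fall of pme1 on poplar wood was lost with a pseudocount of 5. The other pectinesterases of the list, A09556 and A15367, did not share the pattern of pme1. On Chinese fir wood they had mean levels of 1.48 and 4.37 FPKM, against 2.54 and 4.23 FPKM on PDA. Their highest means were on rice straw, and neither was called against PDA on any material. The 4-O-methyl-glucuronoyl methylesterase A15368 rose to 30.3 ± 11.9 FPKM on poplar wood, 17.0 ± 0.587 FPKM on Chinese fir wood and 34.7 ± 10.3 FPKM on rice straw, against 5.37 ± 1.18 FPKM on PDA (SD, n = 3 each; limma adjusted p of 8.71e-05, 0.00106 and 6.01e-05). Such esterases are known mainly for cutting the ester between glucuronoxylan and lignin, which frees no methanol. They made up every called rise of the list on poplar wood and rice straw. The only pectinesterase called higher than on PDA was pme1, on Chinese fir wood.

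**Figure D4:**
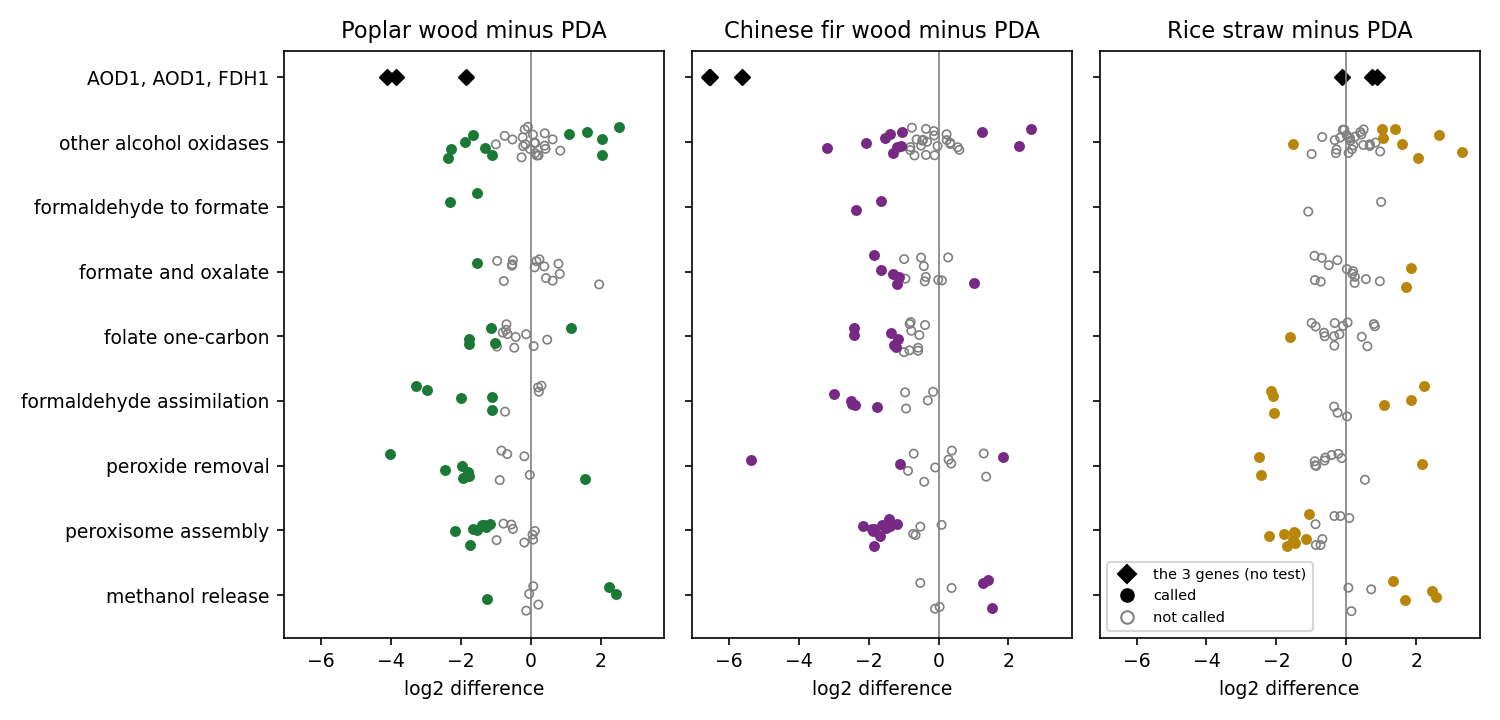
Log2 difference from PDA of each tested gene of the 8 lists in a panel for each plant material, on the log2(FPKM + 1) scale; filled points passed the call, open points did not, diamonds are the 2 alcohol oxidases and FDH1 (not tested here), and vertical jitter within a row has no meaning. On rice straw the diamonds lie between -0.13 and 0.88, while 9 of the 16 peroxisome assembly genes fell.

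For the other counts of 0 against PDA in lists of at least 7 genes, limma at an unadjusted p under 0.05 and voom also gave 0. The lists were also compared between the plant materials. For poplar wood relative to rice straw, 14.4% of all tested genes were called in each direction. On poplar wood relative to rice straw, A07864 fell, and A04205 fell with a call lost in 14 of the 22 alternatives. In the list for formaldehyde assimilation, which holds the transketolases and ayr1, 4 of 9 genes fell and 1 rose. Of 12 peroxide enzymes 5 fell and 1 rose. Of the list of other alcohol oxidases 3 rose and 8 fell, of the folate list 1 rose and 5 fell, and of the methanol release list 0 rose, also at an unadjusted limma p under 0.05 and by voom, and 3 fell. The falls numbered 2 for assimilation, 3 for peroxide removal and 3 for folate without the intermediate libraries, and the rise in assimilation was lost. The 3 falls of the methanol release list became 0 with a pseudocount of 5 and 1 with a filter at 5 FPKM. On poplar wood relative to Chinese fir wood, 18 of the 108 list genes rose and 9 fell, where 17.5% and 6.73% of all tested genes did. On Chinese fir wood relative to rice straw, 8 rose and 31 fell, where 5.70% and 14.2% of all tested genes did. Without the intermediate libraries 11 rose on poplar wood relative to Chinese fir wood, and 4 rose and 19 fell on Chinese fir wood relative to rice straw. Under median-of-ratios scaling 10 rose on poplar wood relative to Chinese fir wood.

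The profiles across the 12 libraries were compared by the root mean square difference of log2(FPKM + 1) after the mean of each gene had been subtracted. Since the genes were chosen for their pattern, this is a description. The alcohol oxidases were each other's nearest gene at 0.188, and 0 of 13971 other tested genes lay nearer to either, where the median gene lay at 3.01. FDH1 lay at 1.58 from A10974 and 1.65 from A05729, with 23 and 33 genes nearer to these. From the side of FDH1, 222 genes were nearer to it than A10974 was.

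The 5 described genes most like A10974 were a probable glycosidase (A13606, 0.983), the catalase CAT1 (A14206, 0.991), the calcium-transporting ATPase cta3 (A03378, 1.003), the mitochondrial citrate transporter ctpF (A14742, 1.37) and the MFS-type transporter criB (A02959, 1.43). The same 5 genes were the nearest described ones to A05729. Of these, cta3 had 4.72 ± 2.57 FPKM on poplar wood, 1.42 ± 0.597 on Chinese fir wood, 312 ± 65.8 on rice straw and 185 ± 44.3 on PDA (SD, n = 3 each), with group means in the order of AOD1. The genes most like FDH1 were a thiamine thiazole synthase (A18593, 0.814), which makes part of vitamin B1 in fungi, the vacuolar amino acid transporter AVT1 (A03985, 0.876), the SET domain protein set5 (A04526, 1.05), an uncharacterised protein (A02680, 1.06) and the malic acid transporter mae1 (A06516, 1.07). The thiazole synthase had 242, 243 and 60.2 FPKM on poplar wood, 11.2, 12.02 and 8.96 FPKM on Chinese fir wood, 119, 140 and 137 FPKM on rice straw, and 427, 376 and 323 FPKM on PDA. As with FDH1, its low poplar wood library was replicate 3. No gene was among the 5 of both an alcohol oxidase and FDH1.

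**Figure D5:**
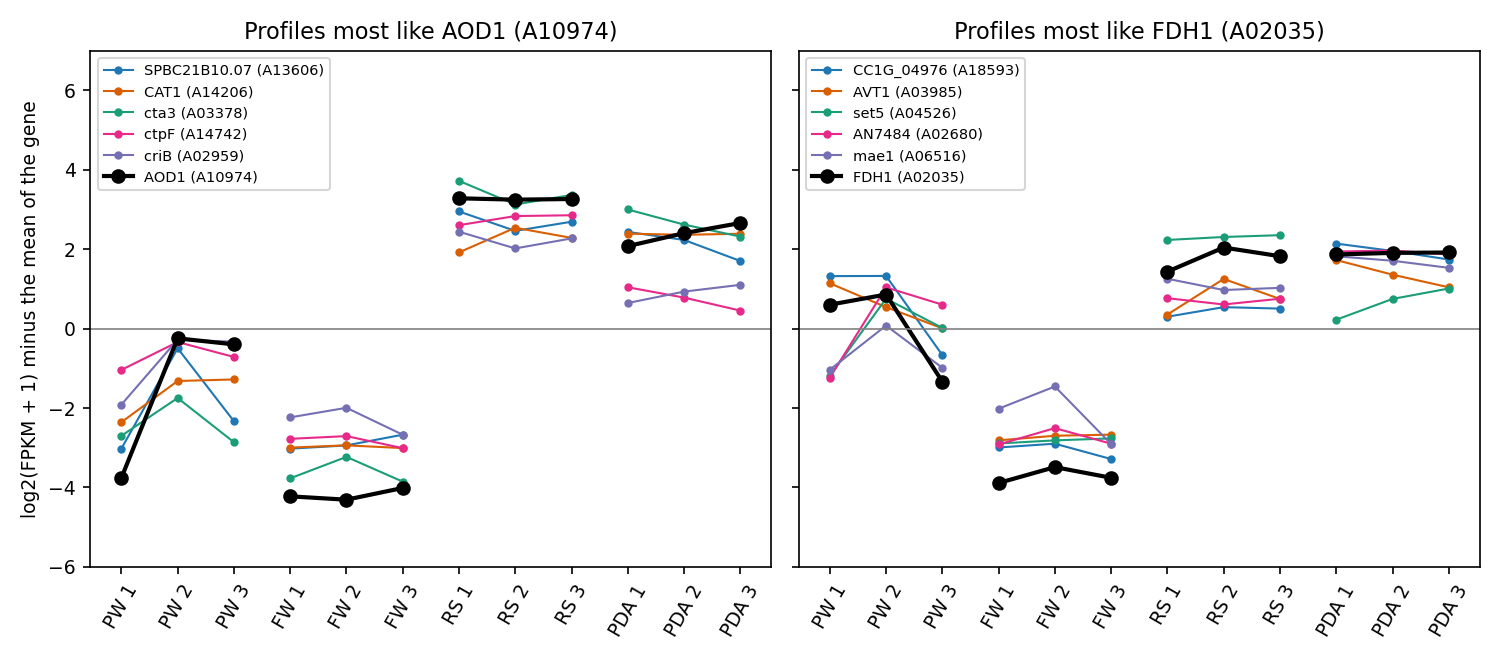
Log2(FPKM + 1) minus the mean of each gene by library, where PW is poplar wood, FW is Chinese fir wood and RS is rice straw, for A10974 (left, black) and FDH1 (right, black) with the 5 described genes most like each; lines join the libraries of 1 group and imply no order. CAT1 follows A10974 with a root mean square difference of 0.991, and the thiamine thiazole synthase CC1G_04976 follows FDH1 with 0.814.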

How the data were processed

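Libraries of mycelium of Peniophora incarnata T-7 on 3 plant materials or PDA were sequenced by the submitters. The authors deposited FPKM values of 16059 genes in 12 libraries. The submitters' processing notes name HTSeq, HISAT2, fastp and DESeq2 without version or role. The build of the genome was not given in the sources used here. Groups came from the sample labels.

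Reads and coding lengths were worked back from the FPKM steps, and the values of 16059 of 16059 genes came out as whole reads to within 0.001. One limma fit of the 4 groups on log2(FPKM + 1), with eBayes and a trend, used the 13974 genes that reached 1 FPKM in at least 3 libraries. Calls needed a Benjamini-Hochberg adjusted p under 0.05 and a log2 difference of at least 1 in size. P-values measure the spread between the labelled replicates. The SE of a gene is shared by the 4 groups, so for the alcohol oxidases and FDH1 it carries the spread on poplar wood. The fit was tested on simulated data.

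The 3 genes and the 8 lists were chosen with earlier results of these data known. Lists come from patterns on descriptions. Named list genes are the most abundant called rise and fall of a list against PDA, or all members of lists of up to 6 genes. AOX1 on all materials, A16047, and list values in groups beyond the call that named the gene were added after values were seen. The pectinesterases A09556 and A15367 and the kinases A02194, A08616 and A07363 were also named outside the rule. So were the transketolases A02551 and A12644, the panB genes and every gene named from the methane metabolism list. Genes most alike are the 5 described genes with the smallest root mean square difference.

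Alternatives were a pseudocount of 0.1 or 5, no filter, a filter at 5 FPKM in 3 libraries, TPM, median-of-ratios scaling, a fit of 2 groups, a replicate block, voom on these reads, omission of the 3 intermediate libraries, and omission of each library. The fits ran in limma 3.58.1 under R 4.3.3. Figures and read recovery used matplotlib 3.10.9, scipy 1.17.1, pandas 2.3.3 and numpy 2.4.6 under Python 3.11.15.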

Additional observations from a re-analysis of the deposited data

How the results depend on the processing

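The alternatives gave 780 values of the differences of the alcohol oxidases and FDH1, of their ratios and of the counts over all tested genes and over the 8 lists together. Of these, 735 were taken as unchanged, 44 moved further, 1 lost its call and 0 called values reversed. A tested difference was unchanged if it kept its direction and its side of the threshold. Untested differences and ratios were unchanged if they moved by less than the spread between replicates, whatever their sign. Counts were unchanged if they stayed within a set ratio of the main count. The lost call was that of FDH1 on poplar wood relative to rice straw without the 3 intermediate libraries (log2 difference -1.70, limma adjusted p = 0.0559). Leaving out single libraries put this difference at -2.13 to -1.04, that of A10974 at -5.34 to -3.59 and that of A05729 at -5.55 to -3.68. A pseudocount of 5 lowered counts: on poplar wood minus PDA 1559 genes were called lower, on Chinese fir wood minus PDA 1939 genes lower and 5 list genes higher, on rice straw minus PDA 1175 genes lower, and on poplar wood minus rice straw 1293 genes higher and 1340 lower, with 4 list genes higher and 19 lower. Median-of-ratios scaling gave 1637 genes higher and 1534 lower, with 21 list genes lower, on Chinese fir wood minus PDA, and 1153 lower on rice straw minus PDA. It split the calls into 1576 higher and 1764 lower on poplar wood minus PDA, against 1160 and 2396 unscaled, and 1397 higher on rice straw minus PDA, against 952. Without the intermediate libraries 4 list genes were higher on Chinese fir wood minus PDA, 6 on rice straw minus PDA, and 474 genes were higher and 945 lower on rice straw minus PDA. In reads not divided by length, the mean log2 ratio of FDH1 to the summed alcohol oxidases was 0.92 on Chinese fir wood, -1.87 on rice straw and -0.93 on PDA, which follows from the shorter coding length of FDH1. The cause of the other changes was not tested. Calls of single list genes that were lost stand beside them above.

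Replicate numbers did not pair the libraries: deviations of same-numbered libraries correlated at -0.192 to 0.327, over 0.1 in 2 of 18 pairs. With the replicate block the differences of poplar wood minus rice straw were -4.73 for A10974, -4.86 for A05729 and -1.73 for FDH1 (limma adjusted p of 0.000238, 0.000276 and 0.00714). Depth limits the alcohol oxidases on Chinese fir wood, where 31 to 64 reads lay behind each value.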

Other observations

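A list added after the values were seen took the 24 genes that the deposited table assigns to methane metabolism, the pathway map that holds the methanol route, without the alcohol oxidases AOD1 and FDH1; 8 of them were also in the other lists. Of 23 tested, 1 rose and 15 fell on poplar wood, 0 rose and 10 fell on Chinese fir wood, and 3 rose and 2 fell on rice straw relative to PDA, with medians of -1.54, -1.02 and -0.33. The 0 also held at an unadjusted limma p under 0.05 and by voom, and median-of-ratios scaling gave 1. Among all tested genes 8.30% rose and 17.1% fell on poplar wood, 5.91% and 24.5% on Chinese fir wood, and 6.81% and 14.1% on rice straw. Without the intermediate libraries 1 of the list rose and 0 fell on rice straw. Most of the falls on poplar wood were of genes outside the route from methanol to carbon dioxide by description. Among these were the fructose-bisphosphate aldolases FBA1 (A12513 and A16638) and the phosphofructokinase pfk1 (A17997). The other pfk1 of the list, A19073, was not called on poplar wood relative to PDA (log2 difference -1.12, limma adjusted p = 0.0916). Fructose-1,6-bisphosphatase FBP1 (A16026), an enzyme of gluconeogenesis, had 34.2 ± 3.05 FPKM on poplar wood, 38.4 ± 10.7 on Chinese fir wood, 131 ± 5.58 on rice straw and 175 ± 10.1 on PDA (SD, n = 3 each). It fell on poplar wood (log2 difference -2.32, limma adjusted p = 6.04e-06) and on Chinese fir wood (-2.19, adjusted p = 6.27e-06) relative to PDA. Both acetyl-coenzyme A synthetases ACS-1, which activate acetate, fell on both woods relative to PDA, A00011 by 3.24 and 2.62 and A05984 by 2.92 and 2.54 on the log2 scale (limma adjusted p of 1.44e-05, 5.23e-05, 3.44e-05 and 7.10e-05).

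The probable acetate kinases A18877 and A19232 fell on poplar wood and rose on rice straw relative to PDA. A18877 had 6.03 ± 2.06 FPKM on poplar wood, 32.2 ± 8.73 on Chinese fir wood, 97.4 ± 5.75 on rice straw and 43.1 ± 18.1 on PDA (SD, n = 3 each), with log2 differences of -2.60 on poplar wood (limma adjusted p = 5.65e-05) and 1.24 on rice straw (adjusted p = 0.00858). A19232 differed by -2.32 on poplar wood (limma adjusted p = 9.65e-05) and by 1.75 on rice straw (adjusted p = 0.000895). The rise of A18877 was lost without the intermediate libraries and without PDA replicate 3, and that of A19232 was not. On Chinese fir wood minus PDA A18877 stood at -0.36 (limma adjusted p = 0.353) and A19232 at 0.54 (adjusted p = 0.147), whereas AOD1 and FDH1 were lowest there.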
